A study of Mus musculus with 3 samples.

Results

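The genes described here are 34 interferon-stimulated genes of the mouse, listed by symbol. The rule uses no measured value, but the list was chosen with earlier results of these data known. The feature tables of all 3 libraries hold 32 of them, among 31744 gene symbols. Mx1 and Mx2 were not analysed here. The other 32 were followed through their level in each library, their spread over cells, and their relation to the transcripts of Tubb3 (a neuronal tubulin), Col1a1 (a fibroblast collagen) and Mki67 (a marker of dividing cells).

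The cells were mouse embryonic fibroblasts of genotype Hb9::GFP, a reporter of the motor neuron gene Mnx1, which were being converted directly into induced motor neurons and were profiled by droplet single-cell RNA sequencing. All 3 groups had received LNI (the factors Lhx3, Ngn2 with HA tags, and Isl1 in 1 cassette) and DDRR (HRAS(G12V) joined through an IRES to p53DD), so an activated Ras and a fragment that blocks p53 were present in every group. The first group was collected at 14 dpi with supplements (BDNF, CNTF, GDNF, FGF and RepSox) and the second at 14 dpi without them, both sorted as Hb9::GFP+ after papain and DNase, while the third was collected at 4 dpi with supplements, after trypsin, and sorted for low CellTrace-FarRed signal. Each group is 1 library, and fibroblasts without the 2 cassettes were not analysed here.

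Type I interferons are secreted proteins that cells make after sensing foreign or misplaced nucleic acid, and fibroblasts are a classical source of interferon beta. Binding to the receptor of Ifnar1 and Ifnar2 activates the kinases Jak1 and Tyk2, which phosphorylate transcription factors of the STAT family, among them Stat2. Stat2 and Irf9 are part of a complex that binds the interferon-stimulated response element in promoters of the induced genes, whose products sense RNA, block viral entry and translation, tag proteins with Isg15, and damp the response itself.

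The response element has a repeated GAAA core, so the promoters were searched on both strands for GAAA, any 2 bases, then GAAA, within 250 bases before the gene start. Of the 32 genes, 26 had an entry in the RefSeq promoter table of build GRCm38.p6, and 11 of the 26 (42.3%) held at least 1 match. Over all symbols of that table, 936 of 27025 (3.46%) held one. The windows below hold the match nearest the start in the 8 of these genes with the highest 4 dpi levels; Ifit3 and Ifit3b each have a second match outside the window. They are written 5′ to 3′ on the gene's strand, with the bases of matches in capitals; a match on the other strand reads as TTTC, any 2 bases, TTTC.
Bst2, chr8:71537567-71537616, minus strand: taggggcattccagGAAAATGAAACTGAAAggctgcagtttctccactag
Isg15, chr4:156200855-156200904, minus strand: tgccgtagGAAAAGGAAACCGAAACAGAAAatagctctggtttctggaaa
Ifit1, chr19:34640784-34640833, plus strand: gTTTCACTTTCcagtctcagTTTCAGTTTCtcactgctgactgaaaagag
Ifit3, chr19:34583387-34583436, plus strand: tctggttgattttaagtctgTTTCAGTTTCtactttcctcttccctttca
Rsad2, chr12:26456543-26456592, minus strand: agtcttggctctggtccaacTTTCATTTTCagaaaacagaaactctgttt
Gbp7, chr3:142530263-142530312, plus strand: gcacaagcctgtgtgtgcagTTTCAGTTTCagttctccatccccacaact
Ifit3b, chr19:34607783-34607832, plus strand: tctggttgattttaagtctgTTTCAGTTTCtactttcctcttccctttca
Gbp3, chr3:142559985-142560034, plus strand: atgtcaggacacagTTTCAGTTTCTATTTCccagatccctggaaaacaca

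The nearest match ended 114 bases before the start in Bst2, 56 in Isg15, 75 in Ifit1 and 29 in Gbp3. Isg15 held 3 matches that overlap in 1 run. The windows of Ifit3 and Ifit3b are identical letter for letter, and since these genes are close copies, the split of reads between them is uncertain. Stat2, Gbp2 and Oas1a also held a match. A second motif, TTC, any 3 bases, then GAA, which is the core of the gamma-activated sequence, was found in 6 of 26 promoters (23.1%) against 8.13% of all symbols; 3 promoters held both, with overlap in 1. Usp18, Parp9, Parp14, Zbp1, Ifi27 and Ifi27l2a had no entry. A match describes letters and not a bound site.

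Filtering kept 2314 cells of the 14 dpi library with supplements, 3716 of that without them and 4492 of the 4 dpi library, with a median of 14380.5, 10664 and 2312.5 unique molecular identifiers (UMIs, the counted molecules) per cell. Libraries shared 3 to 5 cell barcodes. Time, sort, dissociation and depth all separate the 4 dpi library from those at 14 dpi and cannot be told apart. All 12 neuron markers checked had at least 1 CPM (the count scaled to a total of 1000000 UMIs) in both 14 dpi libraries, and all 10 fibroblast markers did so in all 3. The 11 macrophage markers, genes of a cell type that responds strongly to interferon, summed to 6.09 CPM with supplements, 11.2 without and 23.4 at 4 dpi, with Adgre1, C1qb and C1qc at 0 with supplements. The 8 lymphocyte markers summed to 1.09, 0.262 and 0.738 CPM in the order above, and Cd3e, Cd3g and Ncr1 were at 0 in all 3 libraries. Siglech of plasmacytoid dendritic cells was also at 0 in all 3. The 6 markers of that cell type, which include Bst2, summed to 1316, 1362 and 1760 CPM, with 4 of the 6 under 1 CPM in each library. A count of 0 allows up to 0.0816, 0.0654 and 0.246 CPM in the same order.

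Interferon-stimulated transcripts took a larger share of the counted molecules at 4 dpi than at 14 dpi. Summed over the 32 genes they took 2316 CPM at 14 dpi with supplements, 2829 CPM at 14 dpi without, and 8581 CPM at 4 dpi. Before scaling to the total they came to 36.8, 34.9 and 23.3 UMIs per cell in the same order, in libraries of unequal depth. With supplements, 28 of the 32 genes were at least 2-fold lower at 14 than at 4 dpi, 4 lay between, and none was 2-fold higher; of all 10574 genes with a mean of 5 CPM or more, 9.69% were at least 2-fold lower and 14.9% higher. The median log2 ratio of 14 over 4 dpi was -2.19 for the 32 genes and 0.11 for all genes. Of the 32 genes, Ifit3b, Parp14, Oasl1, Oas1a, Gbp2 and Phf11d were under 5 CPM at 14 dpi with supplements and reached the mean through 4 dpi, so the count is a description. Cell markers differed between the same libraries, and within classes of cells the values are given further on: 12 of 12 neuron markers were at least 2-fold higher at 14 dpi, and 8 of 10 fibroblast and 6 of 6 cycling markers at least 2-fold lower. The log2 ratio of the sum was -1.89 (95% interval -1.90 to -1.88). Intervals here and below cover the error of counting UMIs as independent draws, and nothing of how cells or cultures vary. With 1 library per group there is no replicate check and no test. In such sums, fewer cells of a type and less RNA per cell cannot be told apart. Levels are given in CPM in the order 14 dpi with supplements, 14 dpi without, 4 dpi, and ratios, unless stated, are log2 of 14 over 4 dpi with supplements. The chemistry counts transcript ends, so CPM is not divided by length.

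**Figure D1:**
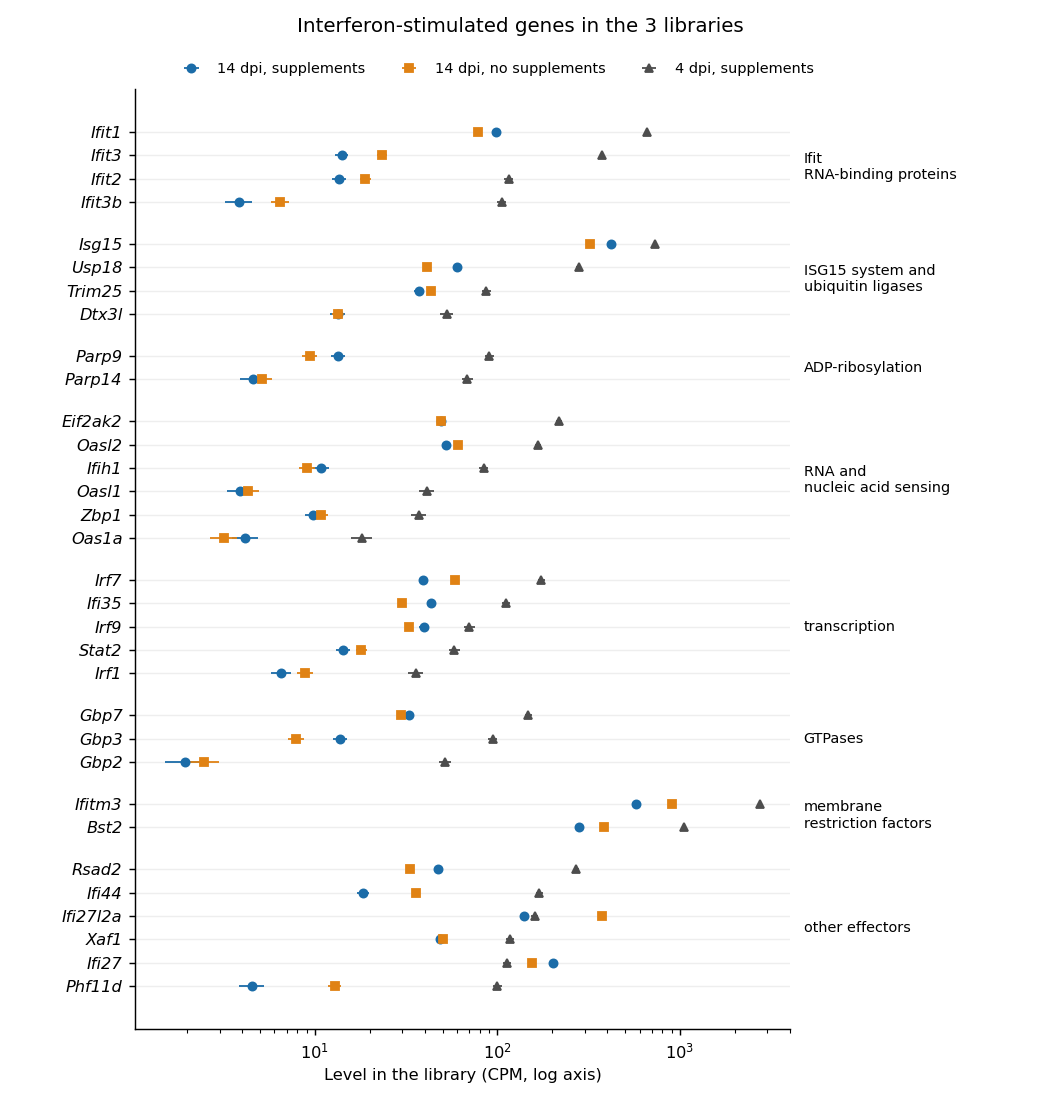
Level of each of the 32 interferon-stimulated genes in CPM (log axis) in the 3 libraries, grouped by role, with points for libraries and lines for exact Poisson 95% intervals. The 4 dpi points lie to the right of both others for all genes but Ifi27 and Ifi27l2a.

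The 4 Ifit genes had the lowest summed ratio of the role groups with supplements. Without supplements over 4 dpi, the Ifit genes stood at -3.31 and the ADP-ribosylation genes Parp9 and Parp14 at -3.45. Their summed level was 130 CPM with supplements, 126 CPM without and 1251 CPM at 4 dpi, a log2 ratio of -3.26 (-3.31 to -3.22). Ifit1, which recognises RNA caps that lack the marks of the cell's own RNA, stood at 98.7, 77.8 and 657 CPM, with a ratio of -2.73 (-2.79 to -2.68). Ifit3 stood at 14.0, 23.4 and 374 CPM, with a ratio of -4.74 (-4.87 to -4.61). Its copy Ifit3b stood at 3.83, 6.45 and 105 CPM, with a ratio of -4.78 (-5.04 to -4.53), the lowest of the 32 genes. Ifit2, the remaining member, stood at 13.6, 18.9 and 115 CPM, with a ratio of -3.08 (-3.23 to -2.93). At 14 dpi Ifit1 was thus 6.66-fold lower than at 4 dpi, while Ifit3 and Ifit3b were 26.7-fold and 27.5-fold lower.

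Within the Isg15 system, Isg15 and Trim25 differed less than Usp18 and Dtx3l. Isg15 encodes a small ubiquitin-like protein that is attached to other proteins, and its level was 420, 319 and 729 CPM, with a ratio of only -0.80 (-0.83 to -0.76). Usp18, the protease that removes Isg15 and also restrains the interferon receptor, stood at 60.4, 41.1 and 278 CPM, with a ratio of -2.21 (-2.28 to -2.13). Isg15 therefore took a larger share of the UMIs of the 32 genes at 14 dpi with supplements (18.1%) than at 4 dpi (8.50%). Trim25, a ubiquitin ligase that activates the RNA sensor RIG-I, stood at 37.0, 43.2 and 87.0 CPM, with a ratio of -1.23 (-1.35 to -1.12). Dtx3l, a ligase that works with Parp9, stood at 13.3, 13.4 and 52.7 CPM, with a ratio of -1.99 (-2.16 to -1.81). The ADP-ribosylation genes Parp9 and Parp14 were lower still at 14 dpi. Parp9 stood at 13.3, 9.38 and 90.1 CPM, with a ratio of -2.76 (-2.91 to -2.60). Parp14 stood at 4.57, 5.12 and 68.4 CPM, with a ratio of -3.91 (-4.15 to -3.66).

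All 6 genes grouped here under sensing of RNA and other nucleic acid were more than 2-fold lower at 14 dpi, with a summed ratio of -2.11 (-2.16 to -2.06). Eif2ak2, the kinase PKR that halts translation when it meets double-stranded RNA, stood at 49.1, 48.9 and 216 CPM, with a ratio of -2.14 (-2.23 to -2.05). Ifih1, the sensor MDA5 of long double-stranded RNA, stood at 10.8, 9.07 and 83.9 CPM, with a ratio of -2.96 (-3.13 to -2.79). Oasl1, a brake on the translation of Irf7, had the lowest ratio of the group, -3.39 (-3.67 to -3.12), at 3.89, 4.27 and 40.9 CPM. Its relative Oasl2 had the highest ratio of the group, -1.67 (-1.76 to -1.57), at 52.6, 61.0 and 167 CPM. Zbp1, which senses nucleic acid in the Z form and can trigger cell death, stood at 9.81, 10.8 and 37.0 CPM, with a ratio of -1.91 (-2.12 to -1.71). Oas1a, whose product activates RNase L, was the only gene of the 32 under 20 CPM in all 3 libraries; its levels were 4.13, 3.16 and 18.0 CPM.

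Among the transcription regulators, Irf9 stood apart from its partner Stat2. Irf9 stood at 39.3, 32.9 and 70.0 CPM, with a ratio of -0.83 (-0.95 to -0.71). Stat2 stood at 14.3, 17.9 and 58.1 CPM, with a ratio of -2.02 (-2.19 to -1.86). Both belong to the complex that binds the response element. Their intervals, which cover counting error only, do not overlap, and the difference between the 2 genes was not tested. Irf7, the factor that amplifies interferon production, stood at 39.3, 58.8 and 174 CPM, with a ratio of -2.14 (-2.24 to -2.05). Irf1, a factor that is also induced through interferon gamma, stood at 6.52, 8.83 and 35.6 CPM, with a ratio of -2.45 (-2.68 to -2.22). Ifi35 stood at 43.4, 30.1 and 111 CPM, with a ratio of -1.36 (-1.46 to -1.25).

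The guanylate-binding proteins are GTPases that attack pathogens and the vacuoles around them. Gbp7 stood at 32.9, 29.7 and 148 CPM, with a ratio of -2.17 (-2.28 to -2.06). Gbp3 stood at 13.8, 7.89 and 94.3 CPM, with a ratio of -2.78 (-2.93 to -2.63). Gbp2 was scarce at 14 dpi, at 1.93 and 2.46 CPM, against 51.7 CPM at 4 dpi, a ratio of -4.74 (-5.12 to -4.39). The 3 ratios of this family were unequal, and their intervals, which cover counting error only, did not overlap. Whether the ratios differ beyond the variation of cells and cultures was not tested.

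The membrane factors Ifitm3 and Bst2 supplied much of the signal. Ifitm3, which blocks the fusion of viruses in endosomes, stood at 575, 906 and 2735 CPM, with a ratio of -2.25 (-2.27 to -2.22). It alone held 24.8%, 32.04% and 31.9% of the UMIs of the 32 genes. Bst2, also called tetherin, which holds budding viruses on the cell surface, stood at 280, 381 and 1056 CPM, with a ratio of -1.91 (-1.95 to -1.88). Without Ifitm3, the log2 ratio of the sum was -1.75 (-1.76 to -1.73).

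The other effectors did not move as a group. Rsad2, or viperin, an enzyme that makes a chain-ending nucleotide, stood at 47.1, 33.0 and 270 CPM, with a ratio of -2.52 (-2.61 to -2.44). Ifi44 stood at 18.2, 35.9 and 169 CPM, with a ratio of -3.21 (-3.34 to -3.09). Phf11d stood at 4.51, 12.9 and 99.9 CPM, with a ratio of -4.47 (-4.71 to -4.23). These 3 genes were lower at 14 dpi in both 14 dpi libraries. Xaf1, an antagonist of the cell death inhibitor XIAP, stood at 48.6, 50.6 and 117 CPM, with a ratio of -1.27 (-1.37 to -1.17). Ifi27 was the only gene of the 32 that was higher at 14 dpi with supplements than at 4 dpi, at 202, 154 and 113 CPM, a ratio of 0.84 (0.76 to 0.93). Its relative Ifi27l2a stood at 140, 372 and 160 CPM, with a ratio of -0.19 (-0.27 to -0.11).

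**Figure D2:**
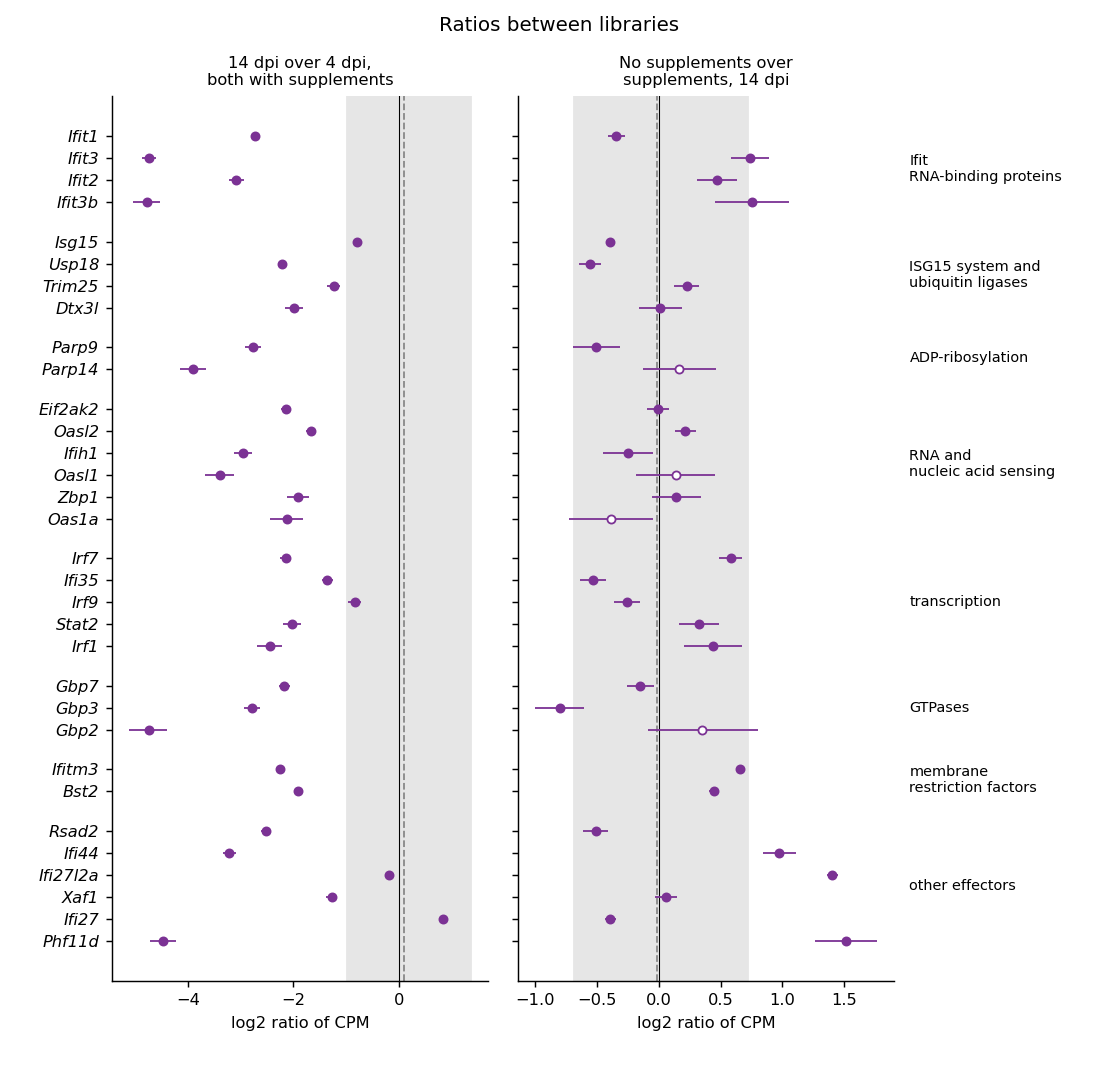
Log2 ratio of CPM of each gene between libraries, 14 over 4 dpi with supplements on the left and no supplements over supplements at 14 dpi on the right, with exact binomial 95% intervals; open points had a mean under 5 CPM. The grey band spans the 10th to 90th percentile of all genes and the dashed line their median, and 28 genes lie at -1 or lower on the left while only Phf11d and Ifi27l2a pass 1 on the right.

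Set against the same 4 dpi library, the 14 dpi library without supplements gave values close in size. There 30 of the 32 genes were at least 2-fold lower than at 4 dpi and 1 was higher, against 9.47% and 15.3% of 10578 genes, with a median of -2.19 for the 32 genes and 0.09 for all genes. Oas1a, Oasl1 and Gbp2 were under 5 CPM at 14 dpi without supplements and reached the mean through 4 dpi, so this count too is a description. The gene that was higher was Ifi27l2a, at 1.22, and the gene between was Ifi27, at 0.45. Isg15 and Irf9 passed 2-fold in that comparison, at -1.19 and -1.09. Both comparisons use the 4 dpi library, so they are not independent of each other.

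The 11 genes with a match of the GAAA repeat had a median ratio of -2.52 and the 15 with an entry but no match -2.14. The ranges overlapped nearly fully, from -4.78 to -0.80 with a match and from -4.47 to -0.83 without.

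Between the libraries at 14 dpi the genes differed little and in both directions. Of the 28 with a mean of 5 CPM or more, 2 were at least 2-fold higher without supplements, none was 2-fold lower and 26 lay between; 5.17% of 10717 genes were that much higher and 4.75% lower. The median log2 ratio of no supplements over supplements was 0.10 for the 28 genes and -0.02 for all genes. Parp14, Oas1a, Oasl1 and Gbp2 did not reach the mean. The 2 genes past 2-fold were Phf11d at 1.51 (1.26 to 1.77) and Ifi27l2a at 1.40 (1.36 to 1.45), and Ifi44 came next at 0.98 (0.85 to 1.11). Gbp3 had the lowest ratio, -0.80 (-0.9999 to -0.60), followed by Usp18 at -0.55 (-0.64 to -0.47) and Ifi35 at -0.53 (-0.63 to -0.42). The Ifit genes were split, with Ifit1 at -0.34 (-0.41 to -0.28), Ifit2 at 0.47 (0.31 to 0.63) and Ifit3 at 0.74 (0.59 to 0.89), and their sum at -0.04 (-0.10 to 0.01). Isg15 was at -0.39 (-0.43 to -0.36), Ifitm3 at 0.66 (0.63 to 0.68) and Bst2 at 0.44 (0.41 to 0.48). The sum over the 32 genes had a ratio of 0.29 (0.28 to 0.30), and 0.14 (0.13 to 0.16) without Ifitm3.

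Beside that sum, the 14 dpi libraries differed in Col1a1 and Tubb3. Col1a1 stood at 68.1 CPM with supplements and 432 CPM without, and Tubb3 at 1039 and 487 CPM. When cells were sorted into classes by detection of these transcripts at equal depth, the ratios came out below 0 in the classes given here. Without over with supplements, the log2 ratio of the 32 genes was -0.16 (-0.26 to -0.06) in cells with Tubb3 only, -0.31 (-0.43 to -0.18) in cells with Col1a1 only and -0.08 (-0.14 to -0.01) in cells with neither. These intervals treat UMIs as independent. The spread over cells, given below, was wider than that, so the intervals are too narrow.

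For values per cell, each cell was thinned at random to 1000 UMIs and shallower cells were left out, 31, 22 and 113 of them in the 3 libraries. A gene counts as detected in a cell that then holds at least 1 of its UMIs. No cell type here is known to lack these genes, and droplets without cells were not analysed here, so the share of UMIs that comes from free RNA was not measured. At this depth a 4 dpi cell held a mean of 9.51 UMIs of the 32 genes, against 2.41 with supplements and 2.92 without at 14 dpi. The median 4 dpi cell held 8 such UMIs, 15.7% of cells held 2 or fewer, and the highest held 80. At 14 dpi the medians were 1 and 2. Cells with no UMI of any of the 32 genes made up 4.48% (3.88 to 5.13, exact binomial) at 4 dpi, 29.4% (27.5 to 31.3) with supplements and 24.1% (22.7 to 25.5) without. In the unthinned cells these shares were 1.25%, 2.85% and 2.07%.

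The spread over 4 dpi cells was wider than counting alone gives. The variance of the summed UMIs was 6.18 times their mean, where independent counting gives a ratio near 1, against 4.33 and 4.17 at 14 dpi with and without supplements. That ratio grows with the mean, and relative to the mean the spread was smaller at 4 dpi: the SD over cells was 0.81 of the mean, against 1.34 with and 1.196 without supplements at 14 dpi. The 10% of cells with the most held 27.6% (27.1 to 27.98) of these UMIs at 4 dpi, 40.9% (39.6 to 42.2) with supplements and 36.7% (35.8 to 37.7) without. Cells with 20 or more UMIs of the 32 genes were 10.3% of 4 dpi cells, 0.350% with supplements and 0.406% without. Gene by gene, 31 of the 32 had a larger variance-to-mean ratio at 4 dpi than most genes of like mean (within a factor of 1.5), and 18 exceeded 90% of them. Rsad2 had the largest ratio, 2.48, with up to 19 UMIs in a cell and detection in 18.4% of cells. Ifitm3 followed at 2.37, Ifi27l2a at 2.11 and Ifit1 at 1.99, with up to 17 UMIs of Ifit1 in a cell. Set against genes of like mean, the order was different. Ifit2 exceeded 99.4% of them, Gbp2 99.3%, Irf1 99.1%, Rsad2 98.9% and Ifi27l2a 98.9%, while Ifitm3 exceeded 91.9% and Ifit1 91.3%. Irf9 was the exception among the 32, with a ratio of 0.997, larger than in 16.2% of genes of like mean. The 14 dpi libraries showed a similar excess. There, 26 genes with supplements and 24 without had a larger ratio than most genes of like mean, and 14 in each library exceeded 90% of them.

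**Figure D3:**
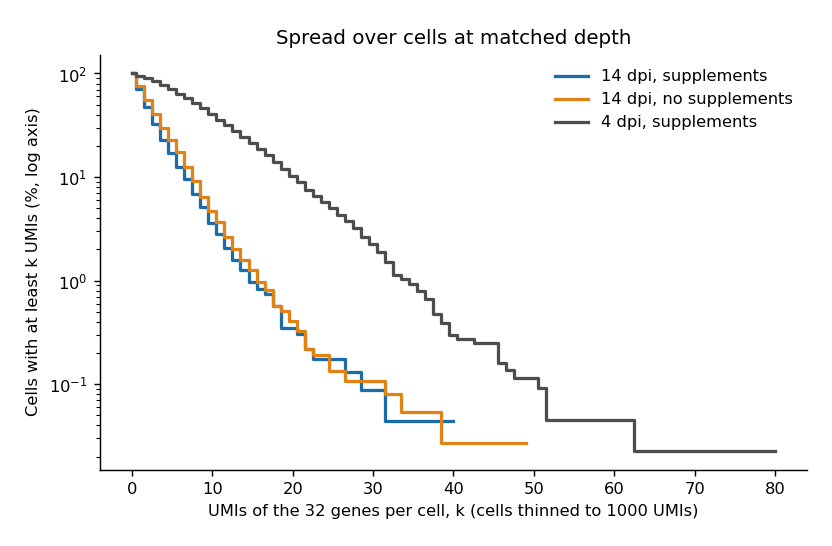
Share of cells (log axis, %) that hold at least k UMIs of the 32 genes, for cells thinned to 1000 UMIs, 1 line per library. The 4 dpi line reaches 80 UMIs and lies above both 14 dpi lines at every k of 1 or more.

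Detection at 4 dpi differed widely among the genes. Ifitm3 was found in 84.04% of thinned cells, Bst2 in 59.0%, Isg15 in 45.4%, Ifit1 in 39.8% and Ifit3 in 26.7%. With supplements at 14 dpi the shares were 29.2%, 19.6%, 26.4%, 6.70% and 1.31%. In unthinned 4 dpi cells, Ifitm3 was found in 94.0% and Ifit1 in 58.1%.

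At 4 dpi the interferon-stimulated genes were lower in cells with Tubb3 and higher in cells with Col1a1. Cells with a Tubb3 UMI, 17.2% of the thinned cells, held a mean of 5.93 UMIs (5.76 to 6.105) of the 32 genes, and the others 10.26 (10.15 to 10.36). The log2 ratio was -0.79 (-0.84 to -0.75). Of the 28 genes with at least 200 UMIs, 27 lay below 0 and 23 at -0.5 or lower, against 11.1% of 3423 genes. Gbp2 was lowest at -2.62, followed by Phf11d at -1.91, Ifit3b at -1.89 and Ifit2 at -1.83, and Usp18 came near 0 at -0.17. Ifi27 alone lay above 0, at 0.36. The mean went from 10.26 UMIs per cell with no Tubb3 UMI to 6.26 with 1, 5.41 with 2 and 4.29 with 3 or more.

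Cells with a Col1a1 UMI, 27.8% of the thinned 4 dpi cells, held a mean of 13.4 UMIs (13.2 to 13.6) of the 32 genes, and the others 8.01 (7.91 to 8.11). The log2 ratio was 0.74 (0.72 to 0.77). Of the same 28 genes, 26 lay above 0 and 23 at 0.5 or higher, against 10.9% of 3423 genes. Ifi27l2a was highest at 1.71, followed by Phf11d at 1.51 and Gbp2 at 1.26, while Ifi27 at -0.27 and Usp18 at -0.23 lay below 0. With 1, 2, and 3 or more Col1a1 UMIs the means were 12.1, 13.7 and 15.7.

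Depth moved with these values although every cell was thinned to the same number. In 4 depth groups of equal size, from the shallowest to the deepest 4 dpi cells, the mean was 12.5, 9.60, 8.89 and 7.04 UMIs of the 32 genes. Cells with Col1a1 had a median of 1898.5 UMIs before thinning and cells without it 2546. Within the 4 depth groups, in the same order, the ratio for Col1a1 was 0.52, 0.78, 0.62 and 0.61. The ratio for Tubb3 was -1.15, -0.96, -0.56 and -0.34, so it kept its sign in all 4 and was smallest in the deepest cells. The part of depth in these values was not tested further.

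Cells with an Mki67 UMI, 10.3% of the thinned 4 dpi cells, held a mean of 7.95 UMIs (7.69 to 8.22) of the 32 genes, and the others 9.69 (9.60 to 9.79), a ratio of -0.29 (-0.34 to -0.24). Of the 28 genes, 24 lay below 0 and 4 (14.3%) at -0.5 or lower, against 7.27% of 3423 genes. Within the depth groups the ratio was -0.30, -0.31, -0.07 and -0.11. The interval of the third, -0.16 to 0.02, included 0, and that of the fourth, -0.21 to -0.02, came near it. Both leave out the spread over cells and are too narrow. Among cells with Tubb3 it was -0.01 (-0.15 to 0.13), and among cells with Col1a1 -0.21 (-0.29 to -0.13).

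At 14 dpi the relations to Tubb3 and Col1a1 had the same sign. For Tubb3 the ratio was -0.87 (-0.95 to -0.79) with supplements and -1.12 (-1.20 to -1.04) without. For Col1a1 it was 1.62 (1.498 to 1.73) and 1.35 (1.29 to 1.40). Only 4.42% of thinned cells with supplements held Col1a1, against 19.9% without. For Mki67 the ratio was 0.85 (0.65 to 1.05) with supplements and 0.44 (0.30 to 0.57) without, of the opposite sign to 4 dpi. The share of mitochondrial UMIs moved with the 32 genes at 14 dpi: from the lowest to the highest of 4 groups of cells by that share, their mean was 2.97, 3.22, 2.27 and 1.201 UMIs with supplements and 3.67, 3.76, 2.59 and 1.66 without. Its part in the 14 dpi relations was not tested.

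Joint classes kept the order of the single splits. At 4 dpi the mean was 5.37 UMIs of the 32 genes in the 663 cells with Tubb3 only, 8.71 in the 2500 with neither transcript, 10.1 in the 88 with both and 13.7 in the 1128 with Col1a1 only. With supplements at 14 dpi the means were 1.66 with Tubb3 only, 2.75 with neither and 7.19 with Col1a1 only. Before thinning, Tubb3 was found in 85.0% of 14 dpi cells with supplements, 64.1% without and 30.7% at 4 dpi. Col1a1 was found in 12.2%, 40.5% and 41.1% in the same order. All these shares were lower after thinning. Classes without a transcript therefore include cells that held it before thinning. The difference between times was present within each class, though classes by detection at this depth are not cell types and may hold different cells at each time. The log2 ratio of 14 over 4 dpi with supplements was -1.69 (-1.78 to -1.61) with Tubb3 only, -1.66 (-1.72 to -1.61) with neither and -0.93 (-1.04 to -0.81) with Col1a1 only. For the 4 Ifit genes it was -2.72 (-3.05 to -2.40), -3.30 (-3.54 to -3.06) and -2.80 (-3.41 to -2.26) in the same order. The 10 macrophage markers left after setting aside Cd68, which other cells also express, were found in 5, 8 and 6 thinned cells (14 dpi with supplements, 14 dpi without, 4 dpi). Those cells held 5, 31 and 147 marker UMIs, and 0, 1 and 5 of the cells held 2 or more. Without those cells the mean of the 32 genes was 2.42, 2.92 and 9.51.

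**Figure D4:**
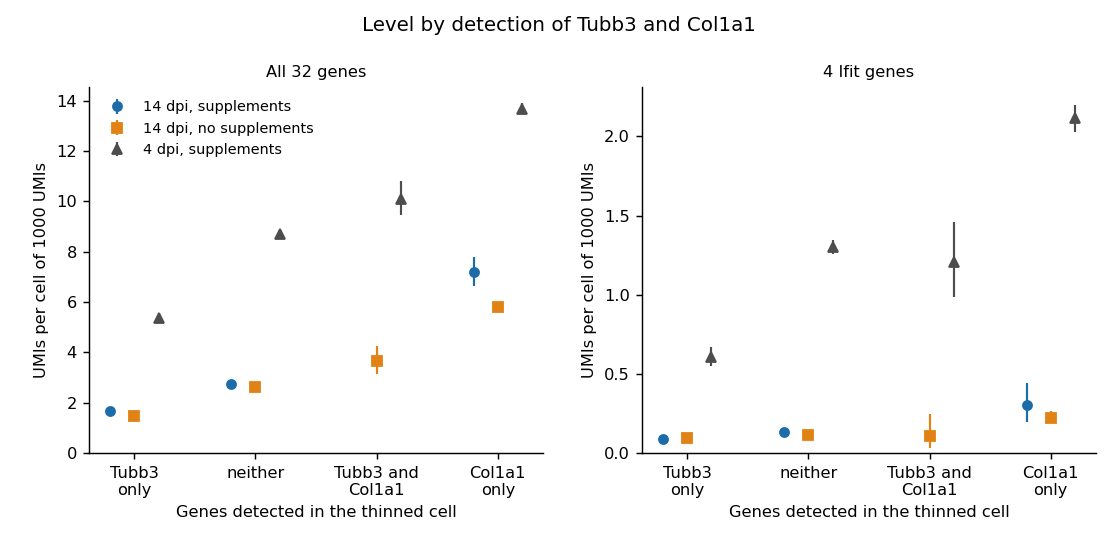
Mean UMIs per cell of 1000, for all 32 genes (left) and the 4 Ifit genes (right), by whether the thinned cell held Tubb3 or Col1a1, with exact Poisson 95% intervals and classes under 20 cells left out. The 4 dpi means lie above the 14 dpi means in every class shown, and within each library cells with Col1a1 only are highest for the 32 genes.

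The genes were also found together in the same cells. At 4 dpi, 52.2% (50.7 to 53.7) of thinned cells held a UMI of Ifit1, Ifit2, Ifit3 or Ifit3b, against 8.02% with supplements and 9.15% without at 14 dpi; unthinned shares were 67.9%, 45.8% and 43.6%. The other 28 genes had a mean of 10.97 UMIs (10.83 to 11.10) in 4 dpi cells with an Ifit UMI and 4.99 (4.90 to 5.09) in those without, a log2 ratio of 1.13 (1.10 to 1.17). The mean of the 28 genes went from 4.99 UMIs in cells with no Ifit UMI through 8.13 with 1, 10.4 with 2, 11.7 with 3 and 14.0 with 4 to 6 to 19.7 with 7 or more. Of 27 of these genes with at least 100 UMIs, 22 were at least 2-fold higher in cells with an Ifit UMI, against 3.43% of 5627 genes, with a median of 1.53 against -0.07. Gbp2 at 2.48, Parp14 at 2.45 and Oasl1 at 2.42 led them. Ifi27 at 0.05 (-0.22 to 0.32) and Irf9 at 0.44 (0.10 to 0.78) were lowest. The share of mitochondrial UMIs did not separate these cells, with a median of 3.70% with and 3.68% without an Ifit UMI, and the median depth was 2210 and 2494.5 UMIs. At 14 dpi the log2 ratio of the 28 genes was 1.48 (1.38 to 1.58) with supplements and 1.08 (1.001 to 1.15) without.

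**Figure D5:**
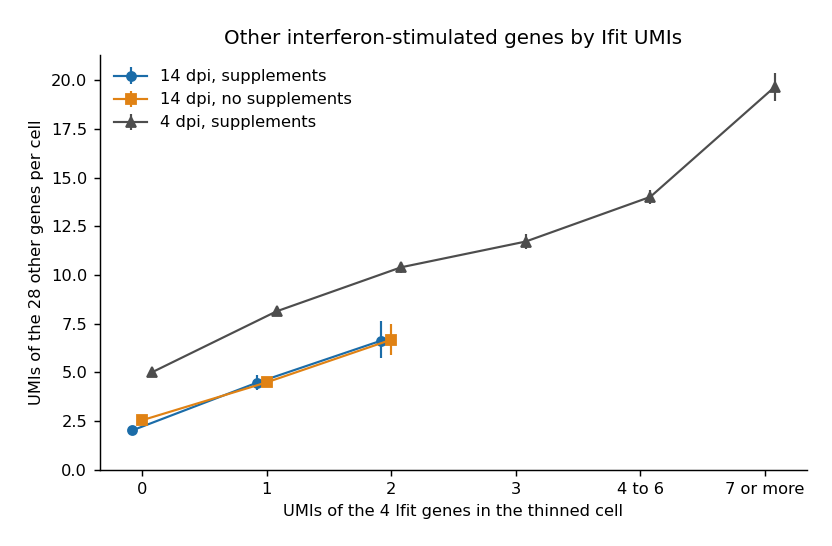
Mean UMIs of the 28 other interferon-stimulated genes per cell of 1000 UMIs, by the number of Ifit UMIs in the same cell, with exact Poisson 95% intervals and classes under 20 cells left out. The 4 dpi means climb from 4.99 to 19.7 and lie above both 14 dpi lines at 0, 1 and 2 Ifit UMIs.

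The rest of the pathway was read from lists of its parts, chosen by function and with earlier results of these data known. Of 42 other interferon-induced genes with a mean of 5 CPM or more, 36 were at least 2-fold lower at 14 than at 4 dpi with supplements and none higher, with a median of -2.48; over all genes 9.69% were that much lower. Of the 42, 14 were under 5 CPM at 14 dpi with supplements and reached the mean through 4 dpi. The chemokine Cxcl10 stood at 25.6, 31.5 and 797 CPM. Ccl5, another chemokine, stood at 4.51, 34.7 and 278 CPM and had the lowest ratio, -5.95, followed by Phf11b at -5.64. Ifitm2, a close relative of Ifitm3, stood at 830, 1292 and 1116 CPM, a ratio of -0.43. Of 15 class I antigen presentation genes, 12 were at least 2-fold lower, against the same 9.69% of all genes, with a median of -1.47; 4 of the 15 reached the mean through 4 dpi. B2m, the light chain of class I molecules, stood at 426, 477 and 1092 CPM. H2-D1 was at a ratio of -0.87, H2-Q4 at -2.99 and Tap1, a peptide transporter, at -2.96.

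The sensing, signalling and receptor genes outside the 32 were set against the same 9.69%. Of 9 sensing and adaptor genes 5 were at least 2-fold lower at 14 dpi and none higher, with a median of -1.10, and 2 of the 9 reached the mean through 4 dpi. Ddx58, the sensor RIG-I, stood at 25.4, 27.4 and 126 CPM, and the ratios of Ifi204 and Dhx58 were -3.04 and -2.85. Of 13 genes of JAK-STAT signalling and its restraint 4 were lower, none was higher and the median was -0.29; 1 of the 13 reached the mean through 4 dpi. The ratios of Jak1 and Tyk2 in that list were 0.33 and -1.47. None of 5 interferon receptor genes passed 2-fold, with a median of -0.45; Ifnar2 stood at 26.3, 43.8 and 37.0 CPM, a ratio of -0.49, Ifngr1 was at -0.62, and Ifngr2 stood at 26.0, 45.8 and 35.6 CPM. Between the 14 dpi libraries, the interferon-induced list had 1 of 30 genes 2-fold higher and 1 lower without supplements, and class I presentation had 2 of 13 higher, against 5.17% of all genes higher and 4.75% lower.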

How the data were processed

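The deposited data are raw UMI counts per gene and cell barcode for 3 libraries, made by the authors with Cell Ranger 6.1.1, per the file headers, on GRCm39, per the submitters' processing notes; how cells were called and how reads shared by gene copies were assigned is not stated in the labels, notes or headers used. Features of 1 symbol were summed. Cells with at least 500 genes and at most 20% mitochondrial UMIs were kept, with 36782509, 45855979 and 12202809 UMIs (14 dpi with supplements, 14 dpi without, 4 dpi). No doublet caller was run; the 5% of cells with the most UMIs were left out as an alternative.

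Levels are CPM of UMIs summed over cells, with exact Poisson 95% intervals, and ratios have exact binomial intervals on the split of UMIs. Genes with a mean of 5 CPM or more were compared and 2-fold was the threshold. Cells were thinned without replacement to 1000 UMIs. Scripts used Python 3.11.15, numpy 2.4.6, scipy 1.17.1 and pandas 2.3.3 and were tested on simulated data. Promoters are from RefSeq (GRCm38.p6) and were matched by symbol. Genes and lists were chosen with earlier results of these data known. All genes measured are named; genes with 20 CPM or more in a library are given with levels and ratios, and of other lists the 2 with the highest level and the 2 with the largest ratio, except 1 gene that is not reported here. Alternatives changed the filters, scaling, thinning depth and gene list.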

Additional observations from a re-analysis of the deposited data

Results flagged for a closer look

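The relation to dividing cells differed in sign between libraries. The log2 ratio of the 32 genes in cells with an Mki67 UMI over cells without was 0.85 at 14 dpi with supplements, 0.44 at 14 dpi without them, and -0.29 at 4 dpi. The difference between libraries was not tested. At 14 dpi the ratios rest on 50 and 119 cells with Mki67, and at 4 dpi on 449. Before thinning, 222, 386 and 918 cells held Mki67 in the same order, so cells without it include some that held it. Among 14 dpi cells without Col1a1 the ratio was 0.90 (0.68 to 1.11) with supplements and 0.42 (0.21 to 0.62) without. Among 14 dpi cells with Col1a1 and no supplements it was -0.10 (-0.28 to 0.09). Among 14 dpi cells without Tubb3 it was 0.58 (0.35 to 0.79) with supplements and 0.22 (0.07 to 0.36) without. For the 4 Ifit genes over all thinned cells, the ratio was 0.90 (-0.12 to 1.76) at 14 dpi with supplements and 0.04 (-0.78 to 0.76) without. At 4 dpi it was -0.48 (-0.62 to -0.34). Both 14 dpi intervals include 0, so a difference in sign was not shown for the Ifit genes.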

How the results depend on the processing

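No paired analysis was possible because each group holds 1 library. Of 480 recomputed ratios of single genes, 441 moved by less than their interval, 39 by more, and none of the ratios past 2-fold changed sign. Between the 14 dpi libraries Eif2ak2, near 0, changed sign under 3 settings, and Ifi44 passed 2-fold, at 1.06, with totals that leave out ribosomal and mitochondrial genes. The ratio of the sum without over with supplements was 0.14 without Ifitm3, 0.078 without Ifitm3 and Bst2, 0.31 with median-of-ratios scaling, 0.38 without ribosomal and mitochondrial genes and 0.28 without cells holding a macrophage marker. The ratio of 14 over 4 dpi was -1.75, -1.71, -1.99, -1.97 and -1.88 under the same settings, and -1.93 without the 5% of cells with the most UMIs. The variance-to-mean ratio was 3.69 at 500 and 10.8 at 2000 UMIs per cell, 5.80 without Ifitm3, 5.57 without Ifitm3 and Bst2, 6.20 without the 5% deepest cells and 6.20 without macrophage marker cells. The share of UMIs in the top 10% of cells was 29.2% at 500 UMIs, 31.1% without Ifitm3 and 33.0% without Ifitm3 and Bst2. The Tubb3 ratio was -0.71 over all deposited barcodes, -0.70 at 500 and -0.61 at 2000 UMIs, and -0.85 without Ifitm3 and Bst2; the Col1a1 ratio was 0.79 over all barcodes. The Mki67 ratio was -0.36 in another random thinning and -0.22 without Ifitm3 and Bst2. The settings without Ifitm3 and Bst2, without macrophage marker cells and with another thinning were chosen after seeing the data. Settings that changed the cells or the depth also changed the random draw of the thinning. Another thinning alone took the Mki67 ratio outside its interval of -0.34 to -0.24. The cause of the moves under the other settings was not tested. Counts of genes past 2-fold stayed within 1.5 times, at 2 or 3 and 26 to 28. Depth limits single genes: over the thinned cells Oas1a had 87 UMIs at 4 dpi and 6 in each 14 dpi library.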

Other observations

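Transcripts of interferons themselves were nearly absent. Ifnb1, which encodes interferon beta, had 0 UMIs with supplements at 14 dpi, 1 without and 26 at 4 dpi. The 26 UMIs lay in 7 of 4492 cells (0.156%), and 18 of them in 1 cell. In 6 of the 7 cells the 32 genes were above the library's median of 7.84 UMIs per 1000, within a range of 4.25 to 38.7. Ifna1, Ifna4, Ifna5, Ifne, Ifnk, Ifnl2 and Ifnl3 were at 0 in all 3 libraries.

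The genes with the highest ratios of cells with an Ifit UMI over cells without at 4 dpi included secreted proteins outside the interferon lists, named here after their values were seen. Saa3, an acute-phase protein, had 102 UMIs in cells with an Ifit UMI and 1 in cells without, a log2 ratio of 6.55 (4.04 to 11.86). Ccl11, an eosinophil chemokine, was at 4.09 (3.01 to 5.43), Ccl7 at 2.92 (2.61 to 3.25) and Ccl2 at 2.21 (2.08 to 2.34). Of the first 20 genes by ratio, 3 were among the 28 genes and 9 in the list of other interferon-induced genes. Cxcl9 was at 3.18 and Cxcl10 at 2.98. Against 3.43% of all genes, 26 of 30 genes of that list were at least 2-fold higher, of 12 class I presentation genes 9, of 10 fibroblast markers 4, and of 8 neuron markers none.

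At 4 dpi, cells with a Neurog2 UMI held 6.69 UMIs of the 32 genes and the others 10.27, a ratio of -0.62; reads do not separate the cassette's Neurog2 from the cell's own. The ratio was -0.52 among cells with Tubb3 and -0.54 among cells without. Detection of the reporter transcript v.EGFP gave -0.61. Cells with and without a UMI of Xist, the X-inactivation transcript, held 9.48 and 9.52 UMIs. Cells in the lowest of 4 groups by mitochondrial share held 10.4 UMIs and those in the highest 9.08, while at 14 dpi these means were 2.97 and 1.201 with supplements and 3.67 and 1.66 without.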
